A study of Mus musculus with 22 samples.

Results

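The genes described here are 38 genes of the cell cycle and mitosis, followed across 22 mouse livers. They were chosen by name, as a list of cyclins, kinases, replication factors and mitotic proteins, by a rule that uses no measured value. Earlier results of these data were known when the list was chosen. Of the 38, 37 were measured among 18194 named genes. No probe set carried the symbol Ccnb1 alone in the array annotation, so cyclin B1 was not analysed here. Each gene was read from 1 probe set, the one with the highest mean over the 22 arrays, and 10 of the 37 had no other probe set. Values are linear array signals, given with the SD over animals. Changes are differences of log2(signal + 16) with their SE, a scale that understates the changes of dim genes.

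Livers came from an intercross of mice heterozygous for both Trim24 and Rara, on a hybrid C57BL/6 and 129/Sv background. Trim24, a transcriptional co-regulator, had been inactivated by gene disruption, and in some animals 1 allele of Rara, the gene of retinoic acid receptor alpha, was deleted as well. The younger animals, aged 5 weeks, comprised 4 wild-type mice (WT), 4 mice without Trim24 (Trim24-/-) and 4 that also lacked a Rara allele (Trim24-/- Rara+/-). At 14 weeks there were 5 WT and 5 Trim24-/- mice. There were no Rara+/- animals with intact Trim24, so an effect of Rara alone cannot be told apart from its effect in the absence of Trim24. Each array held 1 liver. Younger animals are called by their number, older ones by the last word of the sample title. Each group's values keep 1 order: animals 2, 44, 45 and 90 for WT at 5 weeks, 1, 6, 8 and 37 for Trim24-/-, and 54, 66, 73 and 82 for Trim24-/- Rara+/-. At 14 weeks the order is liver_616WT, liver_611WT, liver_613WT, liver_464WT and liver_393WT for WT and liver_648M, liver_466M, liver_463M, liver_411M and liver_395M for Trim24-/-.

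A cell that divides passes from G1, where D-type and E-type cyclins release E2F transcription factors from the retinoblastoma proteins, into S phase, where Mcm helicases and the sliding clamp copy the DNA. The cyclin-dependent kinase Cdk1, with cyclins A and B, then drives mitosis, which the anaphase-promoting complex ends. Hepatocytes of the adult liver are mostly quiescent and re-enter the cycle after injury or resection, whereas the liver of a juvenile mouse is still growing. Genes of S phase are switched by E2F sites, and many genes of G2 and mitosis by the CHR element and CCAAT boxes of their promoters, to which the MuvB complexes and NF-Y bind.

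The trimmed mean of signal was the same on every array, and the median signal was 12.6 to 16.1 in the younger and 19.7 to 25.9 in the older livers. The labels state no sex. Xist read 948 to 2169 in the 12 younger and 13.4 to 44.5 in the 10 older livers, and the Y-linked Eif2s3y showed the opposite order. Age, this sex-linked pattern and the set of arrays therefore cannot be told apart. Of 11 measured hepatocyte markers none had a mean below 16, whereas 7 of 9 lymphocyte markers did. No source used here says where the probes of Trim24 and Rara lie relative to the disrupted parts, so neither gene checks the genotype labels.

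Most of these genes were dim in the liver. The mean over all 22 arrays was above a signal of 64 for 8 of 37 members, against 42.3% of all genes. Mcm5 lay just above that level, at 64.8, and Mcm4 just below, at 63.7. In at least 1 of the 5 groups 13 members had a mean above 64: the cyclins Ccnd1 and Ccne1, Cdk1, the anaphase activator Cdc20, the replication genes Mcm2, Mcm4, Mcm5, Mcm6, Mcm7 and Pcna, and Rrm1, Rrm2 and Tk1 of nucleotide supply. Of all genes 46.1% had such a mean in at least 1 group. By group, 9 members were above 64 for WT and also for Trim24-/- at 5 weeks, 11 for Trim24-/- Rara+/-, and 7 for either genotype at 14 weeks. The share of all genes above 64 in a group was 40.7% to 43.3%. Only Ccnd1, Mcm7, Pcna and Rrm2 stayed above 64 on each of the 22 arrays, and 19 members were below it on each. Of all genes 33.4% stayed above and 48.5% below, so the share below on every array was near that of any gene. In bulk liver, fewer dividing cells and less RNA per cell cannot be told apart.

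**Figure D1:**
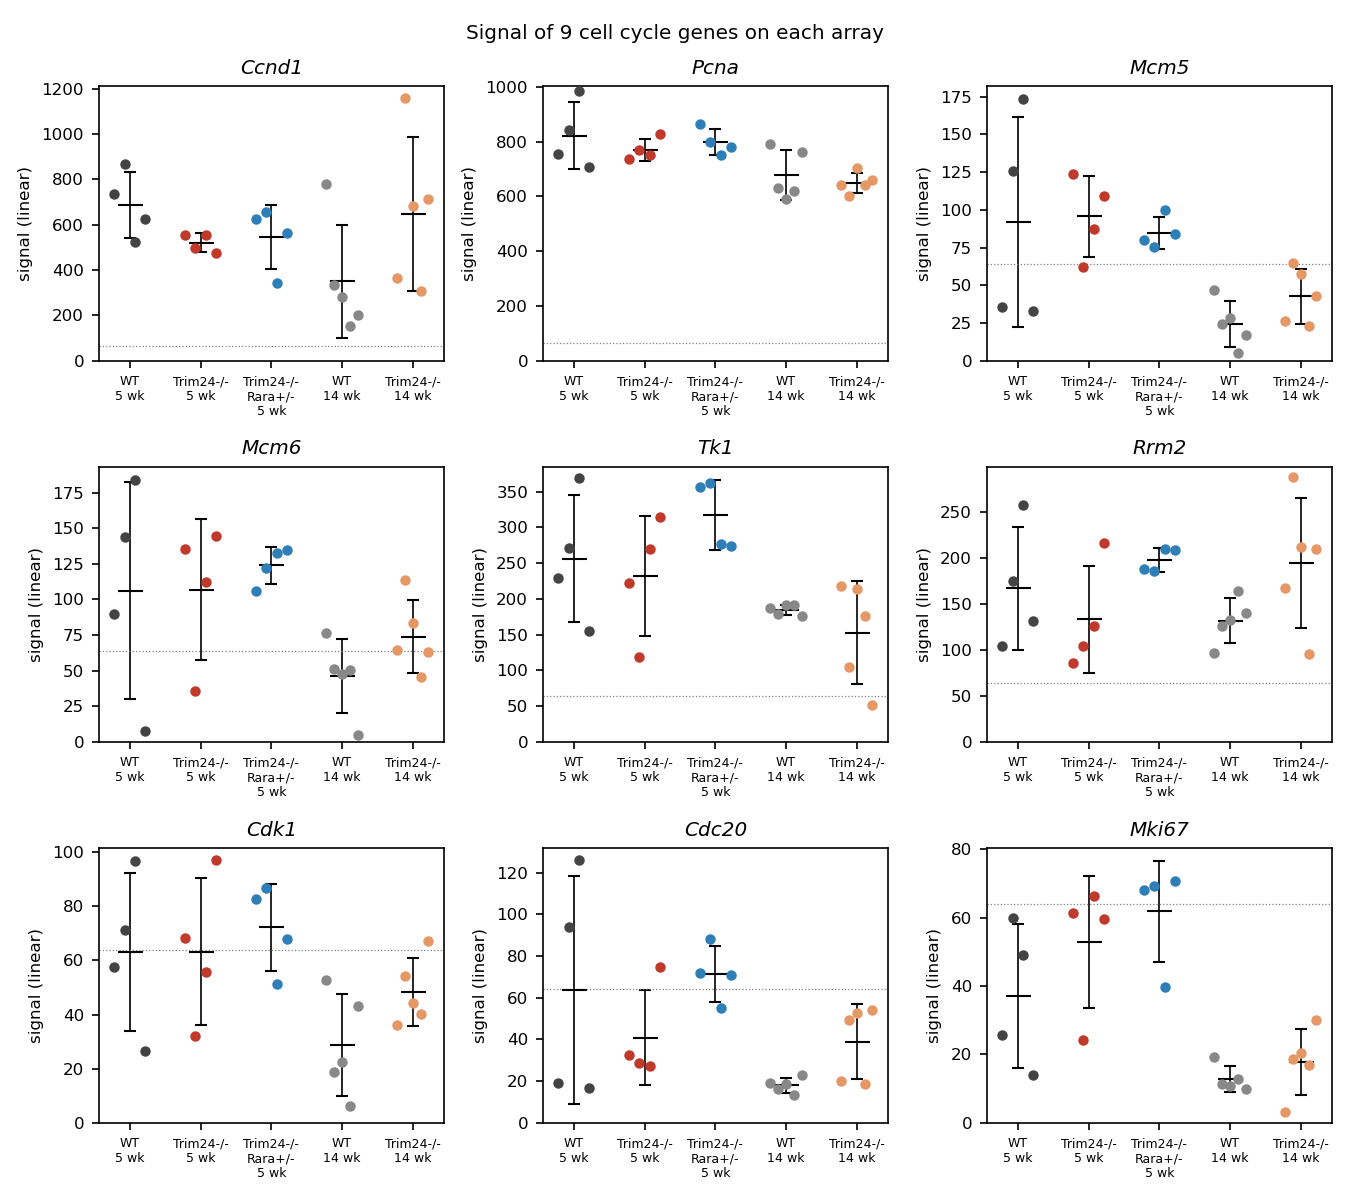
Linear array signal (y axis) of 9 cell cycle genes on each of the 22 arrays, grouped by genotype and age (x axis), with points for animals, a dash and bars for the mean and SD, and a dotted line at a signal of 64. Pcna stays between 589 and 984 on every array, whereas Cdc20 in WT at 5 weeks runs from 16.5 to 126 and its groups at 5 weeks overlap.

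At 5 weeks many, but not all, members varied together between animals of 1 genotype. In WT, Cdc20, which activates the anaphase-promoting complex, read 19, 93.8, 126 and 16.5, high in animals 44 and 45 and low in 2 and 90. Ccnb2, a cyclin partner of Cdk1, read 18.2, 70.05, 51.3 and 14.2 and Top2a, which untangles sister chromosomes, 14.9, 44.9, 50.1 and 9.38 in the same animals. Mcm5 and Mcm6, subunits of the replicative helicase, read 35.3, 126, 174 and 33.2 and 89.6, 143, 184 and 7.44. Animals 44 and 45 were the higher pair for each of these 5 genes, and the gap between the pairs was clear for all but Mcm6, for which animal 2 lay nearer to the higher pair. Counted over the 37 measured members, animal 45 gave the highest WT signal for 26 and animal 44 for 9, while animal 90 gave the lowest for 20 and animal 2 for 13. Animal 45 gave the lowest for 3 members, among them Ccnd1, at 525, and Tpx2, at 12. Over all genes each of the 4 WT arrays was highest for 21.5% to 28.8% and lowest for 23.2% to 29.2%.

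Trim24-/- animals at 5 weeks also fell into an order. Animal 37 was highest for 21 of 37 members and animal 6 lowest for 22. Cdk1, the kinase that triggers mitosis, read 68.3, 32, 55.7 and 97 in this group, lowest in animal 6 and highest in animal 37. Mki67, which coats mitotic chromosomes and marks cycling cells, read 61.2, 24.3, 66.3 and 59.7, with animal 6 well below the other 3. In Trim24-/- Rara+/- livers animal 73 was lowest for 19 members, and the highest values were spread over animals 82, 54 and 66, for 13, 11 and 10 members. Mki67 was 67.9, 69.1, 39.7 and 70.7 there, again with 1 animal apart. At 14 weeks liver_616WT was highest for 17 members and liver_395M for 18, and liver_411M was lowest for 18. These are 45.9%, 48.6% and 48.6% of members, against 17.5%, 27.4% and 21.8% of all genes.

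**Figure D2:**
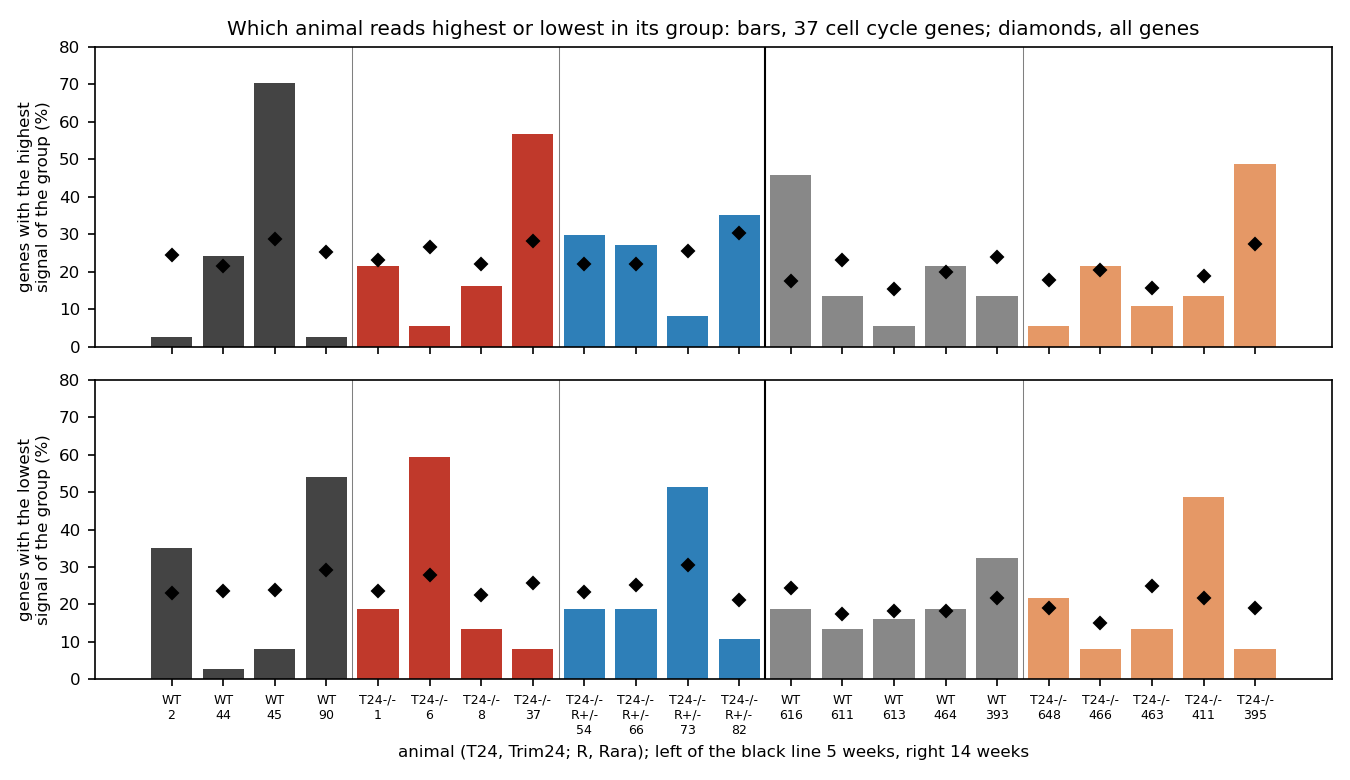
Share of the 37 measured members (bars) and of all genes (diamonds) for which each animal (x axis) gave the highest (upper panel) or the lowest (lower panel) signal of its group, in percent. WT animal 45 was highest for 70.3% of members and Trim24-/- animal 6 lowest for 59.5%, whereas for all genes the shares at 5 weeks lay between 21.1% and 30.4%.

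On the log2 scale, the mean over members was 5.47, 6.11, 6.18 and 5.35 in the 4 WT livers at 5 weeks. It was 5.81, 5.49, 5.79 and 6.01 in Trim24-/- and 6.03, 5.97, 5.78 and 6.07 in Trim24-/- Rara+/- livers. The ranges of the 3 groups overlap, and WT holds both the highest and the lowest array. The median SD of a member on the log2 scale was 0.49 among WT livers, where that of all genes was 0.22. It was 0.34 for Trim24-/- (all genes 0.20) and 0.23 for Trim24-/- Rara+/- (all genes 0.17). In WT 30 of the 37 members varied more than the median gene, and 25 in each of the other groups at 5 weeks. Other genes of mitosis, a list of 35 measured genes that holds none of these members, were lowest in Trim24-/- animal 6 for 24 of the 35 and highest in animal 37 for 21. Of 30 other replication genes, also no members, animal 6 was lowest for 16, and WT animal 90 was lowest for 16. Animal 37 was highest for 9 of the 30, or 30%, near its 28.3% of all genes. Trim24-/- Rara+/- animal 73 was lowest for 15 of the 35 mitosis genes and for 8 of the 30 replication genes, where it was lowest for 30.4% of all genes.

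Markers of other cells also differed between these animals, but not all in the same direction. A list of 10 neutrophil and myeloid precursor genes, of which Prtn3, Ctsg and Camp had means below 16, averaged 5.09, 4.76, 4.82 and 5.25 on the log2 scale in WT at 5 weeks. It averaged 4.60, 5.59, 5.02 and 4.90 in Trim24-/- and 4.66, 4.67, 5.28 and 4.58 in Trim24-/- Rara+/- livers. The signals of the list summed to 116 to 288 per WT array, to 87.2 to 449.8 per Trim24-/- array and to 88.1 to 296 per Trim24-/- Rara+/- array. In each group at 5 weeks its highest value was that of the animal lowest for the most members: 90, 6 and 73. At 14 weeks in WT the list was highest in liver_393WT, at 5.19, and nearly as high in liver_464WT, at 5.18. These arrays were lowest for 12 and 7 members, or 32.4% and 18.9%, against 21.6% and 18.2% of all genes. In Trim24-/- livers at 14 weeks the list was highest in liver_395M, at 5.88, which was highest for 18 members. The 12 macrophage and Kupffer cell markers averaged 8.90 in WT animal 90, against 8.14 to 8.41 in the other WT livers. They averaged 9.53 and 9.17 in Trim24-/- animals 37 and 6, against 8.56 and 8.66 in the others, and 9.22 in Trim24-/- Rara+/- animal 73, against 8.43 to 8.67. Animals 90 and 73 were lowest for the most members, but animal 37 was highest for the most. Lymphocyte, cholangiocyte and endothelial markers averaged highest in WT animal 44 and Trim24-/- animal 37. In Trim24-/- Rara+/- livers they did so in animals 73, 73 and 66. Erythroid precursor markers averaged highest in animals 45, 6 and 54. The part of these cells in the result was not tested.

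RefSeq promoter windows of build GRCm38.p6 were searched for all listed members, whether or not they showed the order of animals, and for Ccnb1 too. The search covered the 250 bases before the start of transcription, on both strands. Windows were found for 29 of the 38 members. The letters TTTGAA, the core of the CHR element, stood in 8 of the 29, or 27.6%, against 16% of all 32851 windows. CCAAT, the box bound by NF-Y, stood in 22, or 75.9%, against 33.8%. Letters of the E2F site, searched as TTTGGCGC, TTTCCCGC, TTTGCCGC and TTTCGCGC, stood in 5, or 17.2%, against 1.86%. The 8 windows with TTTGAA all held CCAAT as well, a pair found in 5.55% of all windows. A match describes the letters and is no evidence of binding.

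The last 160 bases before the start are shown for 3 mitotic genes, for Cdk1 and for 2 helicase subunits. These genes carry the order of the younger WT animals described above. They were picked after their values were seen. Each is written 5′ to 3′ on the strand of its gene, with the searched letters of either strand in capitals. The stretches lie at chr4:118437344-118437503 (minus strand) for Cdc20, chr9:70421555-70421714 (minus strand) for Ccnb2, chr11:99024190-99024349 (minus strand) for Top2a, chr10:69352913-69353072 (minus strand) for Cdk1, chr8:75109349-75109508 (plus strand) for Mcm5 and chr1:128359706-128359865 (minus strand) for Mcm6.
Cdc20: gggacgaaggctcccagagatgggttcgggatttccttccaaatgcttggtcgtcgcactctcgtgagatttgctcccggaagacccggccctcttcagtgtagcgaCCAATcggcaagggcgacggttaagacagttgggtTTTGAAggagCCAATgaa
Ccnb2: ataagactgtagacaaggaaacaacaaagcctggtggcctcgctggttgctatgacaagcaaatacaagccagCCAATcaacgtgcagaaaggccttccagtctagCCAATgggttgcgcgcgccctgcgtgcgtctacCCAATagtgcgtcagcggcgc
Top2a: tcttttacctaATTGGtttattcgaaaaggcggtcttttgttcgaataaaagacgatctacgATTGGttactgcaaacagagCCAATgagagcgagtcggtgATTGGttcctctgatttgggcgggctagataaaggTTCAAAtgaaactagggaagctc
Cdk1: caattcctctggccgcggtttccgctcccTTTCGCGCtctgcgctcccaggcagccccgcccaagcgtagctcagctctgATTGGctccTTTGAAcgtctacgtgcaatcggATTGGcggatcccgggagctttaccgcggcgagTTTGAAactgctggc
Mcm5: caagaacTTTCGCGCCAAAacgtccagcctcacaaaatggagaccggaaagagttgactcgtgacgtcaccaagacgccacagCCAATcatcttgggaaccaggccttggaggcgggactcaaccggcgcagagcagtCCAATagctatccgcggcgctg
Mcm6: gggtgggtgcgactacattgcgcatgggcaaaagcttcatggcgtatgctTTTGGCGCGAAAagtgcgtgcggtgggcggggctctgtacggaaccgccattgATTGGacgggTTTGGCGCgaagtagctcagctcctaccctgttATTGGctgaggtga

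Among the mitotic genes, Cdc20 carried TTTGAA with its first letter 18 bases before the start and CCAAT 53 and 8 bases before it. Top2a carried TTCAAA, the same letters on the opposite strand, 23 bases before the start, with 4 CCAAT boxes between 149 and 58 bases before it. Ccnb2 had 3 CCAAT boxes, 87, 54 and 21 bases before the start, and no TTTGAA in this stretch. Cdk1 held all 3 kinds: TTTCGCGC 131 bases before the start, TTTGAA at 71 and 15 bases and CCAAT on the opposite strand at 80 and 48 bases. Mcm5 and Mcm6 each held a pair of overlapping E2F matches, 1 on each strand, at 153 and 149 bases before the start in Mcm5 and at 110 and 106 bases in Mcm6, which had another at 47 bases. Both had a pair of CCAAT boxes and no TTTGAA in the stretch shown.

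The first comparison asks whether the loss of Trim24 alters these genes at 5 weeks. None of the 37 members passed an adjusted p of 0.05 in limma between Trim24-/- and WT, where 0.599% of all genes did, and none had an unadjusted p under 0.05, against 10.8% of all genes. Estimates were positive for 19 members and negative for 18, with a median of 0.01 against -0.01 over all genes. No member had groups that did not overlap, which 5.52% of genes had. The 95% interval of the change lay within 1 log2 unit of 0 for 30 of the 37. On this scale a 2-fold difference of signal is less than 1 unit, most of all for dim genes. Such a difference therefore lies within the interval for at least 7 members, and the full number was not counted.

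By role, the 4 regulators of G1 all had negative estimates. Ccnd1, cyclin D1, which links growth signals to the cycle, read 734, 868, 525 and 624 in WT and 556, 496, 557 and 477 in Trim24-/- livers. All 4 Trim24-/- values were below those of WT animals 2, 44 and 90, and animals 1 and 8 were above WT animal 45, so the groups overlap. The change was -0.37 ± 0.20 (SE, n = 4, unadjusted p = 0.0834, adjusted p = 0.534 in limma), and 2 other probe sets gave -0.27 and -0.25. Ccne1, cyclin E1, the partner of Cdk2 at the entry into S phase, read 31.6, 53.4, 52 and 25.6 in WT and 30.3, 12.1, 45.8 and 23.3 in Trim24-/- livers (-0.39 ± 0.24). The groups overlap and animal 6 was the lowest.

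Of the 8 replication members, 6 had positive estimates, the highest being that of Mcm2, whose groups overlap. Mcm2 read 40.6, 103, 56.9 and 39.8 in WT and 46, 95, 99.3 and 70.4 in Trim24-/- livers (0.33 ± 0.29, adjusted p = 0.736 in limma). Mcm7, of the same helicase ring, varied less, at 162, 217, 287 and 212 in WT and 207, 239.6, 220.3 and 264 in Trim24-/- livers. Pcna, the sliding clamp of DNA polymerases, was among the steadiest members: 753, 843, 984 and 709 in WT (822 ± 121, SD, n = 4), 736, 768, 750.4 and 828 for Trim24-/- (771 ± 40.4) and 863, 800.3, 751 and 779 for Trim24-/- Rara+/- (798 ± 47.3). For the nucleotide enzymes, Rrm2, the regulated subunit of ribonucleotide reductase, read 105, 175, 257 and 131 in WT and 86, 104, 126 and 216 in Trim24-/- livers, and Rrm1, its large subunit, 52.2, 89.5, 95.9 and 40.2 and 54.8, 53.5, 56.6 and 89.2. In both, Trim24-/- animal 37 stood above the other 3, and the groups overlap. Tk1, thymidine kinase of the salvage route, read 229, 272, 369 and 156 in WT and 222, 119, 270.2 and 315 in Trim24-/- livers.

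The genes of mitosis went both ways. Tpx2, which activates Aurora A on the spindle, had the smallest p after Ccnd1, with 14.9, 20.3, 12 and 16.5 in WT and 13.4, 10.02, 0.772 and 12.9 in Trim24-/- livers (-0.37 ± 0.21, adjusted p = 0.565 in limma), values around or below the pseudocount of 16. Of 3 other probe sets of Tpx2, 2 went the other way. Cdc20 read 32.5, 28.7, 27 and 74.7 in Trim24-/- livers, within the WT range (-0.27 ± 0.43), and Ccnb2 10.7, 18.8, 29.6 and 38.6 (-0.34 ± 0.34). Leaving out WT animal 90 gave a median over members of -0.12, leaving out WT animal 45 gave 0.12, and it was -0.04 without both WT animal 90 and Trim24-/- animal 6. It was -0.03 after quantile normalisation and -0.02 after centring of the arrays, so its sign is not settled.

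**Figure D3:**
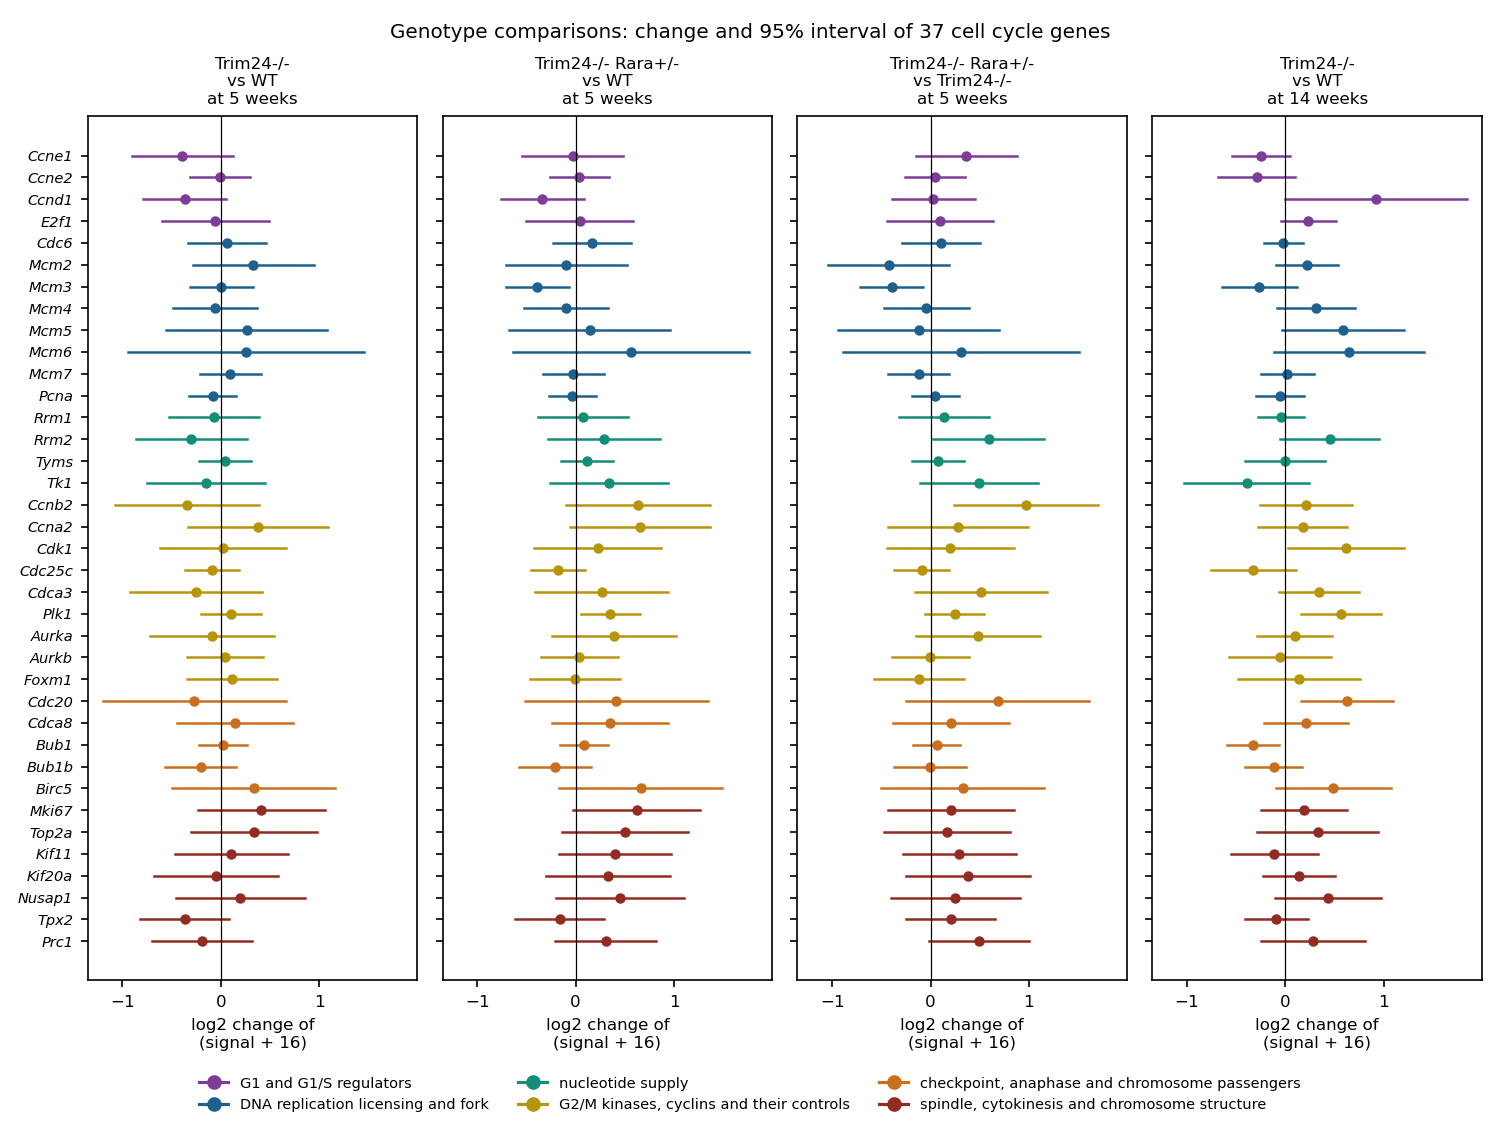
Difference of log2(signal + 16) (x axis) with its 95% interval for each of the 37 measured members (y axis), coloured by role, in the 4 genotype comparisons. Medians over members were 0.01, 0.17, 0.20 and 0.18 from left to right, and no member passed an adjusted p of 0.05.

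Livers lacking Trim24 and 1 Rara allele were next set against the same 4 WT arrays. No member passed in limma, where 0.055% of all genes did, and 2 had an unadjusted p under 0.05, against 7.44% of genes. Estimates leaned upward, with 26 positive, 11 negative and a median of 0.17 against -0.02 over all genes. By role, positive estimates numbered 7 of 9 for kinases and cyclins of G2 and M (median 0.26), 4 of 5 for checkpoint and anaphase genes (0.35) and 6 of 7 for spindle and chromosome genes (0.40). They numbered 4 of 4 for nucleotide supply (0.20), 2 of 4 for the regulators of G1 and 3 of 8 for replication genes. Leaving out WT animal 45 gave a median of 0.39 and leaving out WT animal 90 gave 0.03, so each of these WT arrays moved it by over 1.5 times. It was 0.36 with a pseudocount of 1, 0.05 with 64, and 0.10 with animals 54, 66 and 82 averaged as 1. Over all genes, the SD of the log2 difference between arrays was 0.276 to 0.321 for pairs of those 3 animals and 0.337 to 0.357 for their pairs with animal 73. No member had groups that did not overlap, against 4.62% of genes, and for 28 of 37 the 95% interval lay within 1 log2 unit of 0.

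The members with the smallest p went opposite ways. Mcm3, another helicase subunit, read 44.8, 66.8, 88.4 and 50.8 in WT and 40.3, 41, 50.5 and 40.1 in Trim24-/- Rara+/- livers, a change of -0.39 ± 0.15 (unadjusted p = 0.0211, adjusted p = 0.568 in limma). Animal 73 was above WT animal 2, so the groups overlap. Plk1, a kinase of mitotic entry and exit, read 9.49, 13.2, 14.2 and 11.6 in WT and 25.3, 23.5, 9.84 and 23.1 in Trim24-/- Rara+/- livers (0.35 ± 0.14, adjusted p = 0.593). In 3 Trim24-/- Rara+/- animals Plk1 was above each WT value, and animal 73 was near the lowest WT value. Mki67 read 25.7, 59.7, 49.1 and 13.9 in WT, against the values given above, and its change of 0.62 ± 0.30 had an interval of -0.02 to 1.27. Birc5, the survivin subunit of the chromosome passenger complex, read 1.32, 39.5, 58.3 and 10.7 in WT and 49.8, 51, 33.3 and 38.9 in Trim24-/- Rara+/- livers, with the largest estimate here, for which it was picked after its values were seen (0.66 ± 0.38, adjusted p = 0.772).

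What removal of a Rara allele alters when Trim24 is absent was read from Trim24-/- Rara+/- set against Trim24-/- livers. It called no member, against 0.143% of all genes, and 3 members had an unadjusted p under 0.05, against 11.5% of genes. Of the 37 estimates 28 were positive and 9 negative, with a median of 0.20 against -0.01 over all genes. By role, positive estimates numbered 7 of 7 for spindle and chromosome genes (median 0.25), 6 of 9 for kinases and cyclins of G2 and M (0.25), 4 of 5 for checkpoint and anaphase genes (0.21), 4 of 4 for nucleotide supply (0.32), 4 of 4 for regulators of G1 (0.07) and 3 of 8 for replication genes (-0.08). The 3 comparisons at 5 weeks share arrays in pairs, so their values are not independent. The median was 0.06 without Trim24-/- animal 6 and 0.08 with animals 54, 66 and 82 averaged. For 26 of 37 members the 95% interval lay within 1 log2 unit of 0.

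Ccnb2 had the smallest p here. It read 10.7, 18.8, 29.6 and 38.6 in Trim24-/- and 83.6, 65.7, 35 and 67.1 in Trim24-/- Rara+/- livers, a change of 0.97 ± 0.34 with an interval of 0.24 to 1.71 (unadjusted p = 0.0131, adjusted p = 0.267 in limma). All but animal 73 were above the highest Trim24-/- value, and its WT values ran from 14.2 to 70.0, across most of both ranges. Rrm2 read 187, 186, 209 and 209 in Trim24-/- Rara+/- livers against the Trim24-/- values given above (0.59 ± 0.26, adjusted p = 0.413). Of the Trim24-/- animals, 37 alone reached that range.

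Mcm3 was the 1 member whose groups did not overlap, as was so for 8.46% of genes, and it was lower, as 5.13% of genes were. Its Trim24-/- values were 62.3, 62.9, 61.7 and 58.8, each above the 40.3, 41, 50.5 and 40.1 of Trim24-/- Rara+/- livers (-0.40 ± 0.15, adjusted p = 0.308 in limma). All 4 other probe sets of Mcm3 had the same sign, with changes of -0.08, -0.21, -0.19 and -0.10. The other helicase subunits did not stand apart in this way: Mcm4 read 80.9, 63.1, 72.5 and 74.2 in Trim24-/- and 80.5, 66.8, 67.7 and 65.5 in Trim24-/- Rara+/- livers (-0.04 ± 0.20). Mcm2 read 40.8, 31.5, 67 and 77.9 (-0.43 ± 0.29), Mcm5 80.2, 75.3, 99.8 and 83.9 (-0.12 ± 0.38), Mcm6 106, 122, 133 and 135 (0.31 ± 0.55) and Mcm7 228, 208, 209 and 204 (-0.12 ± 0.14) in Trim24-/- Rara+/- livers. For Mcm2 the estimate was as large as for Mcm3 but the animals overlap.

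Other members in Trim24-/- Rara+/- livers at 5 weeks lay within or near the range of the other genotypes. Cdk1 read 82.8, 86.9, 51.2 and 68.1, Cdc20 71.8, 87.9, 54.9 and 70.6 and Top2a 50.7, 45.9, 33.8 and 45.7. Tk1 read 357, 363, 277 and 274, Rrm1 70.5, 76.5, 60.7 and 74.4, Ccnd1 623, 654, 343 and 565 and Ccne1 51, 30.4, 31.5 and 42.4. Animal 73 gave the lowest of the 4 values for Cdk1, Cdc20, Top2a, Rrm1 and Ccnd1. The dim members overlapped between the genotypes. Plk1 read 14.6, 12.9, 13.5 and 15.9 in Trim24-/- livers, and Tpx2 7.08, 11.5, 8.43 and 26.2 in Trim24-/- Rara+/- livers. Bub1 read 7.09, 5.31, 1.49 and 4.28 in Trim24-/- and 4.53, 5.49, 5.24 and 6.07 in Trim24-/- Rara+/-, and Tyms 3.75, 5.28, 4.2 and 5.25 and 6.13, 7.86, 1.96 and 7.44. Foxm1 read 8.40, 1.62, 19.7 and 6.79 and 14.6, 1.62, 7.90 and 3.56. Of these values 1 of Tpx2 and 1 of Foxm1 exceeded the pseudocount.

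The 16 members with no values of their own under the naming rule had means over all arrays from 4.25 (Cdc6, which loads the helicase) to 35.5 (Ccna2, cyclin A2). They are Cdc6, the cyclins Ccne2 and Ccna2, the transcription factor E2f1, the phosphatase Cdc25c, the Aurora kinases Aurka and Aurkb, Cdca3, Cdca8, Birc5 and Bub1b, and Top2a, Kif11, Kif20a, Nusap1 and Prc1 of chromosomes and spindle. Estimates were positive for 8 of the 16 between Trim24-/- and WT at 5 weeks, from -0.25 (Cdca3) to 0.38 (Ccna2). For Trim24-/- Rara+/- livers 14 were positive against WT, from -0.21 (Bub1b) to 0.66 (Birc5), and 13 against Trim24-/-, from -0.09 (Cdc25c) to 0.51 (Cdca3). At 14 weeks 10 were positive, from -0.33 (Cdc25c) to 0.49 (Birc5). None was called in any comparison on the deposited scale, the WT ages included.

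Endothelial markers had estimates in the direction of most members between Trim24-/- Rara+/- and Trim24-/- livers: all 7 had positive estimates, with a median of 0.29 and no call in limma. Their summed signal ran from 1118 to 1843 in Trim24-/- and 1703 to 1987 in Trim24-/- Rara+/- livers. So did the 8 measured erythroid precursor markers, with a median of 0.24 and no call, from summed signals of 439 to 929 and 775 to 1033. Of these, Epb42 and Hba-a1 had means below 16. Lists of other cells had negative medians. Positive estimates numbered 0 of 9 for lymphocyte markers (median -0.22), 2 of 12 for macrophage and Kupffer cell markers (-0.18) and 1 of 8 for cholangiocyte and progenitor markers (-0.18). They numbered 2 of 10 for neutrophil and myeloid precursor genes (-0.21) and 5 of 11 for hepatocyte markers (-0.06). The part of all these cells in the result was not tested.

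At 14 weeks no member passed the test between Trim24-/- and WT livers in limma, against 0.242% of all genes, and 4 had an unadjusted p under 0.05, against 8.23%. Estimates were positive for 23 members and negative for 14, with a median of 0.18 against 0.00 over all genes, and no member had groups that did not overlap, against 1.78% of genes. Leaving out single arrays gave medians from 0.08, without liver_393WT, to 0.22, and a pseudocount of 1 gave 0.31 and of 64 gave 0.08. For 30 of 37 members the 95% interval lay within 1 log2 unit of 0.

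Ccnd1 had the largest estimate at 14 weeks. It read 779, 335, 279, 155 and 201 in WT and 366, 1159.5, 684, 308 and 714 in Trim24-/- livers, or 349.7 ± 249.7 and 646 ± 340.0 (SD, n = 5). The ranges overlap in both directions: liver_616WT lay above all but 1 Trim24-/- animal, and liver_648M and liver_411M lay near the 335 of liver_611WT. The change was 0.92 ± 0.42 with an interval of -0.00 to 1.85 (unadjusted p = 0.0507, adjusted p = 0.608 in limma), and 1.26 (adjusted p = 0.295) without liver_616WT. Its other 2 probe sets gave 1.14 and 1.08.

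The 4 members with an unadjusted p under 0.05 were genes of mitosis. Plk1 read 15.4, 4.14, 11.8, 14.5 and 4.2 in WT and 21, 21.8, 23.5, 11 and 35.4 in Trim24-/- livers (0.56 ± 0.19, adjusted p = 0.384 in limma). Cdc20 read 18.9, 16, 18.4, 13.5 and 22.8 in WT and 20.1, 49.4, 52.4, 18.5 and 54 in Trim24-/- livers (0.63 ± 0.21, adjusted p = 0.401). For Plk1 4 of the 5 Trim24-/- animals were above the WT range and liver_411M was inside it, and for Cdc20 liver_466M, liver_463M and liver_395M were above it and liver_648M and liver_411M inside. Cdk1 read 52.8, 18.9, 22.4, 6.05 and 43.1 in WT and 36, 54.1, 44.3, 40.1 and 67 in Trim24-/- livers (0.62 ± 0.27, adjusted p = 0.589). Bub1, a kinase of the spindle checkpoint, had a negative estimate, from 13.3, 8.59, 8.73, 9.76 and 14.6 in WT and 1.26, 6.53, 5.02, 9.03 and 5.86 in Trim24-/- livers (-0.33 ± 0.12, adjusted p = 0.467), all below the pseudocount. The other probe set of Bub1 gave 0.10, the opposite sign.

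Replication and nucleotide genes at 14 weeks overlapped between the genotypes. Mcm5 read 46.7, 24.2, 28.4, 4.99 and 16.8 in WT and 26.4, 64.5, 57.2, 23.2 and 42.7 in Trim24-/- livers (0.58 ± 0.28, adjusted p = 0.636 in limma). Mcm6 read 76.5, 51.1, 47.6, 50.7 and 4.42 in WT and 64.4, 113, 83.3, 45.4 and 62.8 in Trim24-/- livers (0.64 ± 0.35). Rrm2 read 97, 126, 132, 164 and 140.0 in WT and 167, 288, 212, 95.3 and 209.8 in Trim24-/- livers (0.45 ± 0.23). For each of these 3 genes 4 of the 5 Trim24-/- animals lay above the WT median. Tk1 read 188, 178, 191, 191 and 176 in WT and 219, 104, 213, 176 and 52 in Trim24-/- livers (-0.39 ± 0.29), a WT group within a narrow range and a Trim24-/- group spread around it. The remaining helicase subunits in Trim24-/- livers read 41.7, 45.9, 37.7, 31.5 and 56.6 for Mcm2, 23.8, 25, 32.9, 23 and 39.4 for Mcm3 and 53, 76.3, 51.1, 35.1 and 76.3 for Mcm4. Their changes were 0.22 ± 0.14, -0.26 ± 0.17 and 0.31 ± 0.18. Mki67 read 19.2, 11.3, 10.7, 12.7 and 9.81 in WT and 3.18, 18.6, 20.5, 16.8 and 29.96 in Trim24-/- livers (0.19 ± 0.20) and Ccnb2 31, 22.6, 20.5, 13.3 and 10.2 in WT and 16.9, 39, 38.2, 12.5 and 21.7 in Trim24-/- livers (0.21 ± 0.21). Rrm1 read 87.1, 86.1, 74.4, 80.8 and 64.1 in WT and 77.8, 67.1, 78.8, 84.9 and 69.3 in Trim24-/- livers (-0.04 ± 0.11), with both groups in 1 range. Pcna read 790.4, 632, 589, 620.4 and 763 in WT and 643, 601, 703, 643 and 660.5 in Trim24-/- livers, or 679 ± 91.1 and 650.3 ± 36.9 (SD, n = 5). Mcm7 read 284, 269.7, 200.3, 235 and 267 in WT and 241, 286, 289, 229.6 and 228 in Trim24-/- livers. Both genes overlapped between the genotypes, with estimates of -0.05 ± 0.11 and 0.02 ± 0.12. Beside these genes, all 12 markers of macrophages and Kupffer cells had positive estimates, with a median of 0.47, 8 of them at an unadjusted p under 0.05 and none called. Their summed signal ran from 3835 to 5224 in WT and 4636 to 8671 in Trim24-/- livers, and none of the 12 had a mean below 16. At 5 weeks 11 of the 12 had positive estimates between Trim24-/- and WT, with a median of 0.39. Mpeg1 was called there (adjusted p = 0.0275 in limma), a call lost under 7 of 24 alternatives. At 14 weeks 7 of 8 cholangiocyte and progenitor markers were positive (median 0.28) and 0 of 11 hepatocyte markers (-0.15). Medians were 0.11 for endothelial, 0.09 for erythroid, 0.07 for neutrophil and myeloid and 0.06 for lymphocyte markers. The part of these cells was not tested.

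Whether the Trim24 difference itself changed with age was tested by an interaction over all 22 arrays. No member passed in limma, against 0.033% of genes, and 2 had an unadjusted p under 0.05, against 6.39%. Ccnd1 had the largest interaction, 1.29 ± 0.51 (unadjusted p = 0.0194, adjusted p = 0.706), from a negative estimate at 5 weeks and a positive one at 14 weeks. Bub1 had -0.35 ± 0.16 (adjusted p = 0.772). The median over members was 0.08, ranging from -0.03 without Trim24-/- animal 6 to 0.24 without WT animal 90. For 14 of 37 members the 95% interval reached beyond 1 log2 unit.

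WT livers at 14 weeks differed from those at 5 weeks in 12 of 37 members, or 32.4%, against 28.3% of all genes, so a share near that of any gene. Mcm3, Mcm4, Mcm5, Cdk1, Cdc20, Mki67 and Ccnd1 were lower at 14 weeks, with 8.63% of all genes lower. Tpx2, Tyms, Bub1, Foxm1 and Ccne1 were higher, with 19.7% of all genes higher. Calls by role were 3 of 8 replication genes, all lower, 2 of 4 regulators of G1, 1 of 4 genes of nucleotide supply, 2 of 9 kinases and cyclins of G2 and M, 2 of 5 checkpoint and anaphase genes and 2 of 7 spindle and chromosome genes. The median over members was -0.25 against 0.13 over all genes. All of these comparisons run between livers that also differ in their sex-linked genes and their array set, as given above.

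The scaling of the arrays decides part of this. After quantile normalisation or centring of each array on its median, the calls were 1 higher and 12 lower of 37 members. Of all 18194 genes, 1859 were called higher and 1853 lower after quantile normalisation, and 1333 and 3694 after centring. All 7 lower members were called under the deposited scale and under both others, and of the 5 higher members Tpx2 alone was. Over all genes, higher calls made up 69.5% of calls on the deposited scale, 50.1% after quantile normalisation and 26.5% after centring, and the median of all genes went from 0.13 to 0.00 and -0.11. The median over members was -0.40 and -0.50 under those scalings, below that of all genes in each case.

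**Figure D4:**
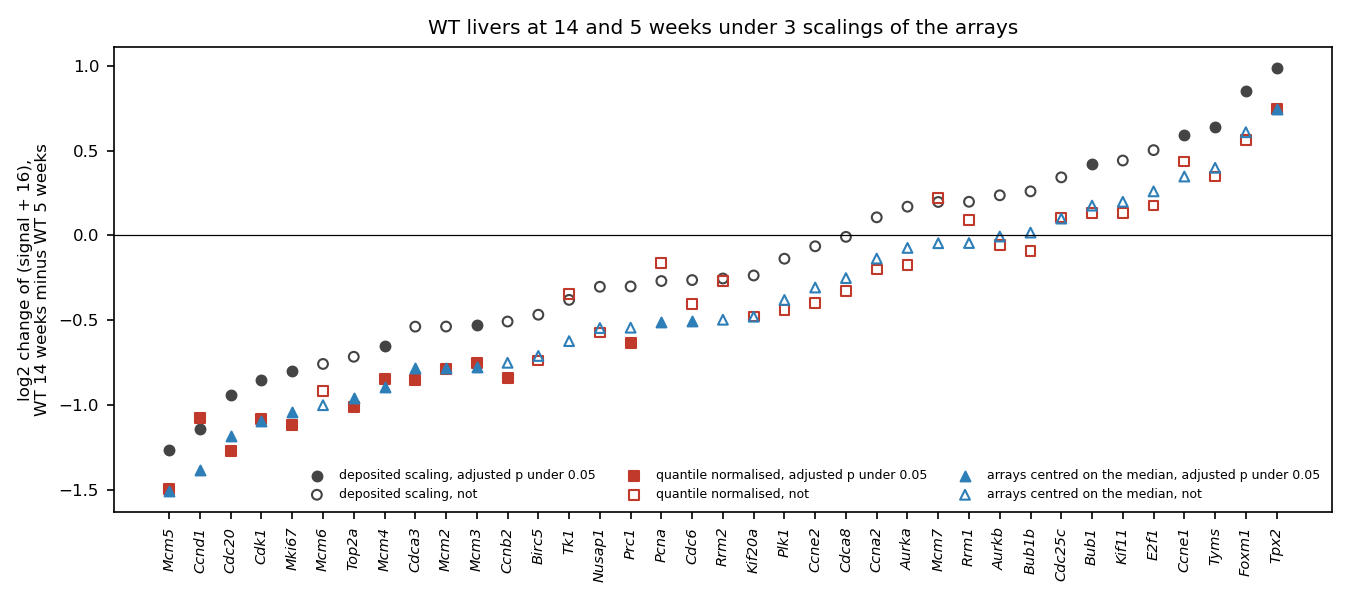
Difference of log2(signal + 16) between WT livers at 14 and at 5 weeks (y axis) for each of the 37 measured members (x axis), on the deposited scale, after quantile normalisation and after centring, with filled symbols for an adjusted p under 0.05. Tpx2 stays above 0 and called under all 3 scalings, and Mcm5 stays lowest at -1.27, -1.50 and -1.51.

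Mcm5 had the largest fall. From the values at 5 weeks given above (92 ± 69.5, SD, n = 4) it went to 46.7, 24.2, 28.4, 4.99 and 16.8 at 14 weeks (-1.27 ± 0.35, adjusted p = 0.0103 in limma). WT animals 2 and 90 at 5 weeks lay inside the range at 14 weeks and animals 44 and 45 above it, and without animal 45 the fall was not called. Of its 2 other probe sets, 1 had the opposite sign, and with the mean of all probe sets its change was -0.37 and not called. Mcm4 went from 64.9, 93.4, 119 and 44.4 to 38.8, 31.7, 39.2, 61.2 and 45.6 (-0.65 ± 0.20, adjusted p = 0.0169) and Mcm3 from the values above to 55.2, 30.8, 23.9, 50.9 and 32.4 (-0.53 ± 0.17, adjusted p = 0.0217). Mcm2 went to 33.6, 24.3, 34.7, 32.2 and 46.7 and Mcm7 to 284, 269.7, 200.3, 235 and 267, neither called on the deposited scale. Mcm2 was called lower after quantile normalisation (-0.79, adjusted p = 0.0169 in limma) and after centring (-0.78, adjusted p = 0.0135). For Mcm7 the estimate was 0.20 and turned to -0.05 after centring. Calls of Mcm3 and Mcm4 were lost without WT animal 44 or 45, and that of Mcm3 also without liver_611WT or liver_613WT.

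Among the other members lower at 14 weeks, Cdc20 fell to 18.9, 16, 18.4, 13.5 and 22.8 (-0.94 ± 0.35, adjusted p = 0.0499 in limma), where animals 2 and 90 at 5 weeks had read 19.0 and 16.5. Its call was at the threshold and was lost without any one of 17 arrays, and 1 of its 2 other probe sets had the opposite sign. Mki67 fell to 19.2, 11.3, 10.7, 12.7 and 9.81 (-0.80 ± 0.26, adjusted p = 0.0271) and Cdk1 to 52.8, 18.9, 22.4, 6.05 and 43.1 (-0.85 ± 0.30, adjusted p = 0.0378). Cdk1 read 57.5, 71.2, 96.9 and 26.7 at 5 weeks, so the ages overlap for it, as for Mki67. The call of Mki67 was lost without WT animal 44, 45 or liver_393WT, and that of Cdk1 without WT animal 2, 44, 45, liver_611WT, liver_613WT or liver_464WT. Ccnd1 fell by 1.14 on the log2 scale (SE 0.36, adjusted p = 0.0221), a call lost without WT animal 2, 44, liver_464WT or liver_393WT, and its other probe sets gave -2.68 and -2.20. The ages overlap through liver_616WT. Without liver_616WT its change was -1.48 (adjusted p = 0.00174).

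Among the higher members, Tpx2 went from 14.9, 20.3, 12 and 16.5 at 5 weeks to 44.8, 68.8, 50.4, 41.3 and 34.7 at 14 weeks (0.99 ± 0.18, adjusted p = 5.68e-04 in limma). The ages did not overlap and the call held under all 32 alternatives. Its other 3 probe sets were also positive, at 0.98, 0.13 and 0.04, of which 0.98 alone lay above the median of 0.13 over all genes. Ages did not overlap for 3 more members, Ccne1, Bub1 and Tyms, against 13.1% of genes that were higher without overlap. Ccne1 went to 54.6, 83.8, 56.8, 83.8 and 61.9 (0.59 ± 0.20, adjusted p = 0.0286), a call lost without WT animal 2, 90, liver_611WT or liver_464WT. Tyms, thymidylate synthase, went from 3.68, 4.50, 0.965 and 7.51 to 11.3, 14.1, 8.94, 28.7 and 16.6 (0.64 ± 0.16, adjusted p = 0.00613), and Bub1 from 3.84, 5.74, 6.10 and 1.16 to 13.3, 8.59, 8.73, 9.76 and 14.6 (0.42 ± 0.12, adjusted p = 0.00975). The other probe set of Bub1 gave -0.14, and its call was lost with the mean of all probe sets (0.14). Of the 3 other probe sets of Tyms, 1 was negative. All Bub1 values and 7 of the 9 Tyms values lay below the pseudocount of 16. Foxm1, a transcription factor of G2 and M genes, went from 8.85, 7.79, 6.94 and 2.88 to 24.5, 46.9, 50.4, 10.3 and 8.83 (0.85 ± 0.27, adjusted p = 0.0217), with overlap and 1 of 3 other probe sets of opposite sign. Its call was lost without WT animal 90, liver_611WT or liver_613WT.

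The whole count of 12 depended on the arrays. It was 7 without WT animal 44, 45 or liver_611WT, and 6 when only the 9 WT arrays were fitted, where Mcm3, Mcm4, Mcm5, Cdk1, Cdc20 and Foxm1 were not called. The shares of all genes called in these fits are not given here, so a fall particular to the members is not shown. Over all alternatives run, calls were lost under 23 of 33 for Cdc20, 10 of 33 for Ccne1, 9 of 33 for Cdk1, 8 of 32 for Foxm1, 5 of 33 for Mcm3, 4 of 33 for Ccnd1, 4 of 32 for Mki67, 3 of 33 for Mcm4 and Mcm5, 3 of 32 for Bub1, 2 of 32 for Tyms and none for Tpx2. In Trim24-/- livers at 14 weeks Tpx2 read 41.5, 46.3, 42.4, 33.7 and 53.5 and Ccne1 50.8, 45.8, 62.2, 50.2 and 63. Tyms read 6.63, 18, 11.6, 18.5 and 24.6 and Foxm1 36.3, 30.6, 19.3, 42.3 and 19.7. None of these 4 passed the test against WT at that age (adjusted p = 0.922, 0.688, 0.999 and 0.942 in limma). Bub1 read 5.54 ± 2.82 in those livers and 11 ± 2.77 in WT (SD, n = 5), also not called (adjusted p = 0.467).

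Genes around the members in the same pathway were followed by 4 further lists. Among 19 inhibitors and growth-arrest genes, 26 other cyclins, kinases and regulators, 30 other replication genes and 35 other mitosis genes, no gene was called in the comparisons at 5 weeks or in the interaction. Members of these lists with an unadjusted p under 0.05 numbered 1, 2, 2 and 3 between Trim24-/- and WT at 5 weeks, 1, 0, 5 and 2 for Trim24-/- Rara+/- against WT, 2, 6, 5 and 4 for it against Trim24-/-, and 1, 1, 1 and 2 in the interaction. The shares of all genes were 10.8%, 7.44%, 11.5% and 6.39%. At 14 weeks Ccng1, cyclin G1, a target of p53, rose from 274 ± 31.2 in WT to 610.0 ± 92.4 in Trim24-/- livers (SD, n = 5, log2 change 1.11 ± 0.13, adjusted p = 0.00237 in limma). It was the 1 call in these lists between genotypes, and it held under all 19 alternatives. The lists had medians of 0.10, -0.03, 0.02 and 0.11 in that comparison. An unadjusted p under 0.05 was reached there by 5 of 19, 3 of 26, 3 of 30 and 4 of 35 genes, against 8.23% of all genes.

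Between WT ages the 4 lists held calls in both directions: 1 higher and 6 lower of 19 inhibitors, 5 and 6 of 26 other regulators, 3 and 6 of 30 replication genes and 3 and 5 of 35 mitosis genes. Of all genes 19.7% were called higher and 8.63% lower. Cdt1, which loads the helicase onto origins, fell from 161 ± 46.9 to 72.6 ± 5.10, and Ube2c, the ubiquitin-conjugating enzyme of the anaphase-promoting complex, from 60.4 ± 37.5 to 13.4 ± 11.4. Mcm10, a helicase-activating factor, rose from 422 ± 155 to 1139.6 ± 118, and Gadd45g, a growth-arrest gene, from 92.8 ± 61.3 to 341 ± 152. After centring, higher and lower calls were 1 and 11, 3 and 9, 1 and 10 and 1 and 11. Lower calls also outnumbered higher ones over all 18194 genes after centring, at 3694 against 1333. The call of Cdt1 was lost under 1 of 33 alternatives, and those of Ube2c, Mcm10 and Gadd45g under none of 32, 33 and 33.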

How the data were processed

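Biotin-labelled RNA of 22 mouse livers, amplified in 2 rounds, was hybridised to 1-colour Affymetrix arrays, per the labels' protocols. The deposited values are linear intensities per probe set, scaled by the authors to one trimmed mean on all arrays. The signal software was not given in any source used. Of 45101 probe sets, 34958 carried 1 gene symbol in the platform annotation. Each of 18194 genes was read from its probe set with the highest mean of log2(signal + 16). Tests used limma 3.58.1 (lmFit and eBayes, R 4.3.3) with Benjamini-Hochberg adjustment over all genes and a threshold of 0.05, and were tested on simulated data. One model of the 12 younger livers gave their 3 comparisons, a model of the 10 older livers the other genotype comparison, and a model of all 22 the ages and interaction. Depth has no count here, and the number of arrays limits the precision. Alternatives were pseudocounts of 1 and 64, quantile normalisation, centring, brighter genes, the mean of probe sets, other fits and leaving out arrays. The members and gene lists were chosen with earlier results of these data known. Values of single animals are given for members above a signal of 64 in a group, called members and the smallest p of each comparison. From the other lists up to 4 called genes with the smallest adjusted p could be named.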

Additional observations from a re-analysis of the deposited data

Results flagged for a closer look

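For each of the 21 named members, and for the mean log2 level over the members, in each group of 4 or 5 animals, the gap of the highest or lowest animal to its nearest neighbour was compared with Dixon's critical value, and 8 of 110 groups of values exceeded it. Chance alone gives about 1 in 20. In Trim24-/- livers at 5 weeks Mki67 was 24.3 in animal 6, against 59.7 to 66.3 in the others. Animal 37 of that group had Cdc20 at 74.7, against 27.0 to 32.5, and Rrm1 at 89.2, against 53.5 to 56.6. In Trim24-/- Rara+/- livers animal 73 had Mki67 at 39.7, against 67.9 to 70.7, and Plk1 at 9.84, against 23.1 to 25.3. The same animal had Mcm3 at 50.5, the highest of its group, against 40.1 to 41.0. Animal 54 of that group had Mcm4 at 80.5, against 65.5 to 67.7. At 14 weeks liver_616WT had Ccnd1 at 779, against 155 to 335.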

How the results depend on the processing

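No member was called in the 3 comparisons at 5 weeks, at 14 weeks or in the interaction under any alternative run. The count of 12 called members between WT ages ranged from 7 to 13 when single arrays were left out. It was 6 when only the 2 compared groups entered the fit, and the other settings gave up to 13. The share of all genes called in fits of fewer arrays is not given. The median change of members between WT ages stayed negative, from -0.53 to -0.09 over all settings. The median between Trim24-/- and WT at 5 weeks took either sign, from -0.12 to 0.12. The medians of Trim24-/- Rara+/- against WT (0.03 to 0.39), against Trim24-/- (0.06 to 0.31) and of Trim24-/- against WT at 14 weeks (0.08 to 0.31) stayed positive. The cause of these shifts was not tested. No paired analysis was possible because the groups share no replicate numbers. Signals near the pseudocount of 16 limit what can be measured. In each group 7 to 11 of 37 members had a mean below 16, against 29.0% to 40.6% of all genes.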
